A study of Mus musculus with 2 samples.

Results

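Histones are the proteins on which DNA is wound in chromatin, and the transcripts of their genes were followed here in sorted haematopoietic stem and progenitor cells with and without Trmt6. The members were all features of both libraries whose symbol starts with Hist1h, Hist2h, Hist3h or Hist4h, plus H1f0, H1fx, H2afx, H2afy, H2afz, H2afv, H3f3a and H3f3b, with 5 or more UMIs (unique molecular identifiers, 1 per captured transcript molecule) in total. Of 27998 features, 77 matched these names and 72 reached 5 UMIs. They are 6 clustered linker histone genes, 58 clustered core histone genes (18 H2A, 16 H2B, 12 H3 and 12 H4) and 8 variants classed as replication-independent (2 linker and 6 core). The classes were set by symbol alone. H2afx is counted among the variants although its transcript was higher in S phase than in G1 phase in both libraries, as given below. The 5 features that fell short, Hist1h4m, Hist1h2br, Hist1h2bq, Hist1h2aa and Hist1h2ba, were not followed further, and 2 features share the symbol Hist2h2bb.

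Core histones H2A, H2B, H3 and H4 form the nucleosome, and linker histone H1 binds where the DNA enters and leaves it. Clustered genes supply most histone protein during DNA replication: their transcription needs NPAT in the histone locus body, and their mRNA ends in a stem-loop bound by SLBP in place of a poly(A) tail, so that it is lost when replication ends. Variants such as H2A.Z and H3.3 are made from single polyadenylated genes through the whole cycle and are placed in chromatin outside replication. Blood progenitors divide often, whereas stem cells rest for long periods, so the clustered transcripts are also a readout of cycling.

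Both libraries were made from Lin- Sca-1+ c-Kit+ (LSK) bone marrow cells of 3-month-old mice. WT is Trmt6fl/fl and cKO is Trmt6fl/fl with MX1-cre, an interferon-inducible recombinase. Trmt6 codes for part of the methyltransferase that makes m1A in tRNA, and the study examined what its loss does to stem cells. The study's own sources differ on the control: the label gives floxed Trmt6 without a recombinase, the description of the single-cell experiment gives unfloxed Trmt6 with Mx1-Cre and pIpC to induce it, and the mouse methods name Trmt6fl/+ Mx1-Cre beside Trmt6fl/fl Mx1-Cre mice. Mx1-Cre also acts in tissues outside the blood, and none of these gives the number of mice behind a library. With 1 library per genotype there is no replicate: genotype, library and depth cannot be told apart, no test across samples was possible, and every interval below is a 95% interval that covers counting error only.

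The WT library kept 8147 cells with 41931262 UMIs and the cKO library 8476 cells with 87537510 UMIs, with medians of 4160 and 10099.5 UMIs a cell. Trmt6 itself was counted at 63.4 CPM in WT against 50.5 in cKO (log2 ratio -0.33), by 3-prime UMIs that do not show whether the floxed exon was present. Both sort markers were counted in each library, with Kit at 62.9 CPM in WT against 21.4 in cKO and Ly6a (Sca-1) at 34.2 CPM in WT against 142 in cKO. Mature neutrophil markers (S100a8, S100a9, Ngp, Camp, Ltf) summed to 5372 CPM in WT and 1.92 CPM in cKO, and granulocyte-monocyte progenitor markers (Mpo, Elane, Prtn3, Ctsg, Ms4a3) to 6442 and 741 CPM. All 5 genes of each list were lower in cKO by a log2 ratio of 0.5 or more, and none was at 0. The other lists summed, in WT and cKO, to 269 and 444 CPM for stem markers, 533 and 145 for lymphoid-primed, 48.4 and 252 for erythroid, 64.2 and 453 for B and plasma cell, 565 and 274 for T and NK, and 233 and 91.8 for mast cell and basophil markers. Megakaryocyte markers summed to 168 CPM in WT, at a log2 ratio of -1.75 in cKO. The erythroid sum turns on Hbb-bt (log2 ratio 3.54), while Car1 (-1.61) and Klf1 (-1.30) were lower. The B and plasma cell sum in cKO turns on Jchain, and the T and NK sum on Nkg7, the one gene of its list at a mean of 2 CPM or more. The libraries shared 24 barcode sequences.

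The 3-prime end of each gene matters for these values, because the assay captures poly(A) while most clustered histone mRNA has none. The stem-loop was therefore looked for by its consensus, which opens with GG, holds CTTTT and AG inside and closes with GCC with any base between, on the plus strand of the GENCODE M21 transcripts (GRCm38). It was found in 38 of 62 matched clustered members and in 4 of 21481 other protein-coding genes (0.0186%). The polyadenylation signal AATAAA stood in the last 100 transcript bases of 13 of the 62, against 59.0% of the other genes. Among the 8 variants H2afx alone held the stem-loop, followed by 822 more bases, and 5 of the 8 held AATAAA. A match in these letters is a description and not evidence of a working site, and 2 members, Hist1h2bm and Hist1h2bh, had no matching transcript. The stem-loops of 8 members follow, in capitals: genes with many UMIs or a low ratio between the libraries, Hist1h3b as an H3 gene with one of the highest S over G1 ratios, and H2afx as the variant that has one.
Hist1h2ap (chr13:21833026-21833049, minus strand): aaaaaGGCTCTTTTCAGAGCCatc
Hist2h2aa1 (chr3:96246027-96246052, plus strand): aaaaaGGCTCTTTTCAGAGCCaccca
Hist1h2ae (chr13:23570663-23570688, minus strand): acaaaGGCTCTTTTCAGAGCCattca
Hist1h2bj (chr13:22043633-22043658, plus strand): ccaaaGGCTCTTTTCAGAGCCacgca
Hist1h3b (chr13:23752815-23752840, plus strand): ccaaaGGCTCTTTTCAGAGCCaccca
Hist1h4d (chr13:23581945-23581970, plus strand): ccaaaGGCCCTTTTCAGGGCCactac
Hist1h1e (chr13:23621777-23621802, minus strand): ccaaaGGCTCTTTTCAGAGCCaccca
H2afx (chr9:44335235-44335260, plus strand): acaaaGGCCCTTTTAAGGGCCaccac
In these 8 the stem carries GGCTC with GAGCC in H1, H2A, H2B and H3 genes and GGCCC with GGGCC in Hist1h4d and H2afx. The annotated Hist1h2ap transcript stops 3 bases after the stem-loop, those of Hist1h2ae and Hist1h1e 151 and 1153 bases after it.

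The genes lie in 4 groups, all on GRCm38. Of the matched Hist1 members, 47 lie at chr13:21715763-23764406 and Hist1h2al lies apart. The 11 Hist2 members span chr3:96219865-96279001, the 2 Hist3 members chr11:58948920-58956830 and Hist4h4 chr6:136801553-136804415. RefSeq promoters (GRCm38.p6, 250 bases before to 50 after the start site) were found for 65 of the 72 members. The octamer ATGCAAAT, read on both strands, stood in 6 of 17 H2A, 7 of 14 H2B and 0 of 27 other clustered members with a promoter, against 1.74% of all 32851 promoters. The 2 features named Hist2h2bb were given the same promoter, so it enters the H2B count and the other member counts here 2 times. In H2A and H2B genes the octamer is known as a binding site of the POU factor Oct-1. CCAAT was found in 54 of the 65 members (37.4% of all promoters) and TATAAA in 33 (13.6%). H2A and H2B genes that start back to back can share the octamer, as 2 pairs below do, with the octamer in capitals.
Hist1h2ae (chr13:23571330-23571359, minus strand, 128 bases before the start site): atagaggttctATGCAAATaagggactcaa
Hist1h2bg (chr13:23571330-23571359, plus strand, 59 bases before the start site): ttgagtcccttATTTGCATagaacctctat
Hist1h2ah (chr13:22035780-22035809, minus strand, 155 bases before the start site): tagaacttcgtATGCAAATaaagtgaaatg
Hist1h2bk (chr13:22035780-22035809, plus strand, 30 bases before the start site): catttcactttATTTGCATacgaagttcta
Hist3h2a (chr11:58954555-58954584, plus strand, 119 bases before the start site): gggtaaggcatATGCAAATtaggaaggctc
H3f3b (chr11:116024560-116024589, minus strand, 74 bases before the start site): gtcgttggtgtATGCAAATcagggttctgt
Hist3h2a and H3f3b are shown because they had the octamer but differ from most clustered genes in the values below.

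Clustered histone transcripts were lower in cKO in every class. All 64 clustered members together were counted at 4141 CPM (4122 to 4161) in WT against 1450.0 (1442 to 1458) in cKO, which made a log2 ratio of -1.51 (-1.52 to -1.50). This sum is scaled to the UMIs of all genes, so these genes gave 0.414% of UMIs in WT and 0.145% in cKO. Of the 55 clustered members with a mean of at least 2 CPM over the libraries, 54 were lower by a log2 ratio of 0.5 or more, none was higher by as much, and all 55 were below 0. Over all 10416 genes at that mean, 18.7% were lower and 9.43% higher by as much, and the median was -0.08. At a log2 ratio of 1 or more, 43 of the 55 were lower and none higher, beside 5.59% and 3.22% of all genes. Over core members that share no 50-base stretch of their 3-prime end with another gene, the ratio was -0.89 in place of -1.59 for all core members. The median of the 55 was -1.67. In summed UMIs, fewer cells of a type and less RNA per cell cannot be told apart.

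**Figure D1:**
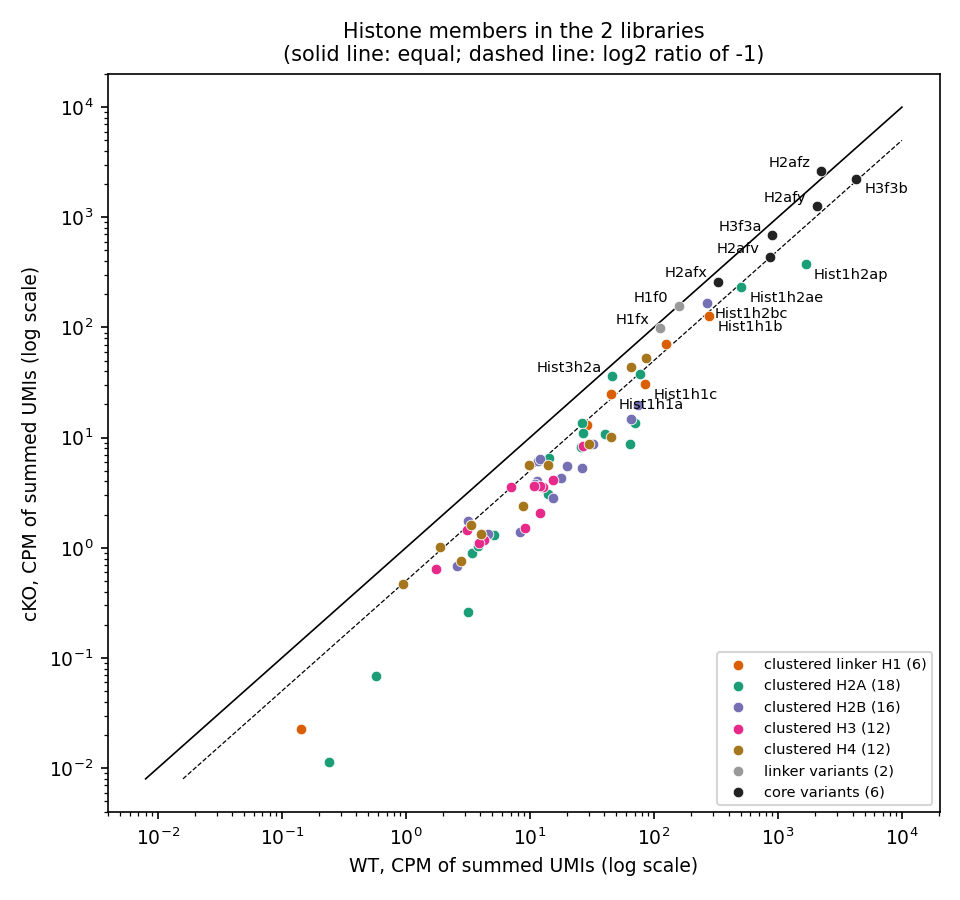
CPM of summed UMIs in WT (x, log scale) and cKO (y, log scale) for the 72 members, 1 point each, coloured by class, with the solid line at equal levels and the dashed line at a log2 ratio of -1. Clustered members lie below the solid line, most of them below the dashed one, while H2afz at 2243 and 2644 CPM lies above the solid line.

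Among the linker histones, which compact chromatin, the 6 clustered members summed to 564 CPM (557 to 571) in WT against 265 (262 to 269) in cKO, a log2 ratio of -1.09 (-1.11 to -1.06). Hist1h1b (H1.5), the most counted, stood at 279 CPM in WT against 126 in cKO (-1.14). Hist1h1e (H1.4) was at 125 CPM in WT against 70.2 in cKO (-0.83). Hist1h1c (H1.2), which is also made outside S phase, was at 85.6 CPM in WT against 30.7 in cKO, and its ratio of -1.48 was the lowest of the linker genes at the minimum level. Hist1h1a (H1.1) and Hist1h1d (H1.3) were at ratios of -0.85 and -1.15, from 44.8 and 28.7 CPM in WT. The testis gene Hist1h1t had 6 UMIs in WT and 2 in cKO, too few to compare.

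The 18 H2A members summed to 2604 CPM (2588 to 2619) in WT against 763 (757 to 769) in cKO, which made a log2 ratio of -1.77 (-1.78 to -1.76). This was the widest gap in CPM of the 5 clustered classes, and 14 of the 15 members at the minimum level were lower past 0.5. Hist1h2ap alone was counted at 1674 CPM in WT against 376 in cKO, 40.4% and 25.9% of the clustered UMIs, with a ratio of -2.15 (-2.17 to -2.14). Without Hist1h2ap the clustered core genes stood at -1.23 in place of -1.59. Hist1h2ae, the next, was at 508 CPM in WT against 233 in cKO (-1.12). Hist2h2ac was at 76.7 CPM in WT against 38.1 in cKO (-1.01) and Hist1h2an at 70.1 CPM in WT against 13.7 in cKO (-2.36). Hist2h2aa1 had the lowest ratio of all members at the minimum level, -2.86, from 64.1 CPM in WT against 8.81 in cKO. Hist3h2a was the exception in H2A, with 46.1 CPM in WT against 36.0 in cKO and a ratio of -0.36 (-0.44 to -0.27), the highest of the 55. The last 400 annotated bases of Hist1h2ap, Hist2h2aa1 and the linker gene Hist1h1e consist wholly of 50-base stretches that other genes also hold, and 36 of the 62 matched clustered members share over 50% of theirs. Counting by gene can lose or split the reads of such copies, to an extent not measured here, so their single values are uncertain.

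The 16 H2B members summed to 583 CPM (575 to 590.0) in WT against 253 (249 to 256) in cKO (-1.20, interval -1.23 to -1.18), and all 15 at the minimum level were lower past 0.5. Hist1h2bc held 11.5% of the clustered UMIs in cKO and 6.43% in WT, at 266 CPM in WT against 166 in cKO, and had the highest ratio of the H2B genes, -0.68 (-0.72 to -0.65). Lower down stood Hist1h2bg at 73.9 CPM in WT against 19.6 in cKO (-1.91) and Hist1h2bj at 65.9 CPM in WT against 14.8 in cKO (-2.16). Hist1h2bl at -2.59 and Hist1h2bp at -2.45 were among the 5 lowest of the members at the minimum level. H2B as a sum therefore changed less than H2A, but its median gene, at -1.85, was close to that of H2A, at -1.88.

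The 12 H3 members summed to 119 CPM (116 to 122) in WT against 35.0 (33.8 to 36.3) in cKO (-1.76, interval -1.83 to -1.70), and all 11 at the minimum level were lower past 0.5. Hist1h3g was at 9.16 CPM in WT against 1.51 in cKO (-2.60) and Hist2h3b at 12.1 CPM in WT against 2.09 in cKO (-2.54), both among the 5 lowest ratios at that level. The 12 H4 members summed to 272 CPM (267 to 277) in WT against 134 (132 to 137) in cKO (-1.02, interval -1.06 to -0.98), and all 9 at the minimum level were lower past 0.5. Hist1h4d was at 86.3 CPM in WT against 52.5 in cKO (-0.72), Hist1h4i at 65.4 CPM in WT against 43.8 in cKO (-0.58) and Hist1h4h at 44.9 CPM in WT against 10.2 in cKO (-2.14). The H4 genes, which encode the same protein, thus spanned ratios from -2.14 to -0.58. Hist1h4i and Hist1h4d stop well past the stem-loop, with 330 and 770 further bases, and Hist1h4h within 46 bases of it. Of the other H4 genes at the minimum level, those with long ends stood at -1.76 (Hist1h4c, 454 bases), -1.31 (Hist4h4, 2445 bases) and -0.81 (Hist2h4, 1257 bases). Hist1h4n, which ends 31 bases after the stem-loop, stood at -1.86. The part of the end in these ratios was not tested.

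**Figure D2:**
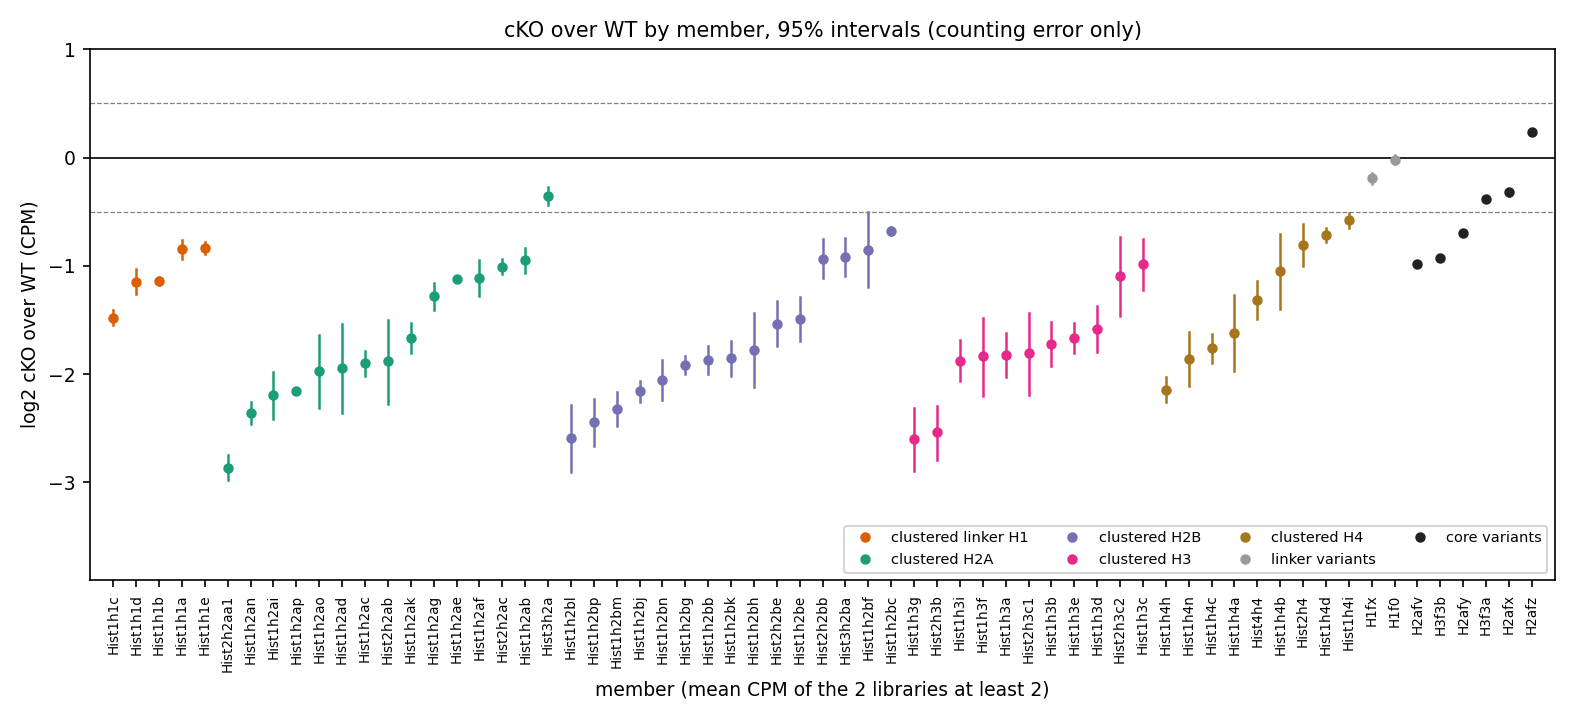
log2 ratio of cKO over WT for the 63 members with a mean of at least 2 CPM, by class and then by ratio, with 95% intervals of counting error and dashed lines at 0.5 and -0.5. The 55 clustered members lie between -2.86 and -0.36, the 8 variants between -0.98 and 0.24.

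As a sum the 8 variants differed less between the libraries than the clustered genes, but they did not move as 1 group, and the lowest of them overlapped the clustered genes. They summed to 10933 CPM (10902 to 10965) in WT against 7813 (7794 to 7831) in cKO, a log2 ratio of -0.48 (-0.49 to -0.48), with 3 of 8 lower past 0.5 and none higher. The sum depends on its members: without H2afz the core variants stood at -0.78 in place of -0.50, and without H3f3b, the most counted, the 8 variants stood at -0.26. H2afz (H2A.Z), which marks promoters and belongs to the proliferation genes the study named, was at 2243 CPM in WT against 2644 in cKO, a ratio of 0.24 (0.23 to 0.25), the only member above 0 over all kept cells. Its close relative H2afv (H2A.Z.2) went the other way, at 863 CPM in WT against 437 in cKO (-0.98). Both H3.3 genes were lower, which encode the same protein: H3f3b at 4265 CPM in WT against 2247 in cKO (-0.92), and H3f3a at 905 CPM in WT against 695 in cKO (-0.38), which does not pass 0.5. H2afy (macroH2A1), linked to silent chromatin, was at 2061 CPM in WT against 1274 in cKO (-0.69). H2afx (H2A.X), which is phosphorylated at DNA breaks, was at 326 CPM in WT against 261 in cKO (-0.32). Of the linker variants, H1f0 (H1.0), known from resting and differentiated cells, was at 159 CPM in WT against 156 in cKO (-0.02, interval -0.06 to 0.02) and H1fx (H1.10) at 112 CPM in WT against 97.9 in cKO (-0.19, interval -0.24 to -0.14). The interval of H1f0 holds 0 and its sign turned with the scaling, and the sign of H2afz turned when cells with myeloid marker UMIs were left out, as given next.

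The myeloid markers above also differed between the libraries. The classes were therefore recomputed over cells with at most 2 UMIs of the 10 neutrophil and granulocyte-monocyte progenitor markers among 2000 drawn UMIs. This left 2214 WT and 7163 cKO cells. There the clustered core genes stood at 3886 and 1182 CPM (-1.72) and the clustered linker genes at a ratio of -1.19, as large as over all cells. The variants as a sum were at -0.54. Single variants moved: H1fx stood at -0.75 and H1f0 at -0.47, while H2afy, at -0.46, no longer passed 0.5. H2afz stood at 0.14, and its sign depended on the limit: it was 0.29 at a limit of 10 marker UMIs and -0.0929 (interval -0.13 to -0.0546) in the 398 WT and 3714 cKO cells with no marker UMI. At those limits the clustered core genes stood at -1.60 and -1.83.

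The comparison was then made within cell cycle phases, called from S and G2/M gene lists that hold no histone member, on cells thinned to 2000 UMIs. This left out 200 WT and 105 cKO cells with fewer. G1 held 43.0% of WT and 36.0% of cKO cells, S 28.8% and 39.7%, and G2/M 28.1% and 24.3%. Without thinning, S held 30.3% and 44.0%. With phases scored in each library separately, S held 29.9% and 35.4% and G2/M 27.0% and 27.3%, so the gap in S was narrower and that in G2/M was gone. The S list summed to 3297 CPM in WT and 3389.9 CPM in cKO, while the G2/M list summed to 7599 and 5646 CPM. The share of cells called S was thus higher in cKO under each of these 3 ways of calling, by an amount that depended on it, whereas the clustered histone transcripts were lower.

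Within each phase the clustered genes stayed lower in cKO. In G1 they summed to 1860.1 CPM in WT against 744 in cKO (-1.32), and 50 of 55 members were lower past 0.5 and 1 higher, beside 24.5% and 10.1% of all genes. In S they summed to 3534 CPM in WT against 1329 in cKO (-1.41), with 53 of 55 lower and none higher, beside 16.5% and 9.99% of all genes. In G2/M they summed to 6332 CPM in WT against 2331 in cKO (-1.44), with 53 of 55 lower and none higher, beside 17% and 12.5% of all genes. With the same mix of phases in both libraries the core genes stood at -1.48 and the linker genes at -1.01. In G1 the H2A gene Hist1h2ab was higher past 0.5, at 0.57, though on 20 WT and 65 cKO UMIs with an interval from -0.15 to 1.39. It is named here after its value in G1 was seen. Neutrophil markers summed to 2501 CPM in WT G1 and 9940.0 CPM in WT G2/M cells and to at most 2.96 CPM in any cKO phase, and B and plasma cell markers to 1325 CPM in cKO G1 and 73.6 CPM in WT G1 cells. Their part in the ratios by phase was not tested.

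The variants differed by phase in their own way. H3f3b stood at 5443 CPM in WT against 2080.2 in cKO in G1 (-1.39), at a ratio of -0.79 in S and -0.58 in G2/M. H2afz was above 0 in each, with 1054 CPM in WT against 1669 in cKO in G1 (0.66), 0.20 in S and 0.21 in G2/M. H2afv was below -0.5 in each, from -0.68 in G1 to -1.01 in G2/M. H2afy ranged from -0.91 in G1 to -0.60 in G2/M, and H3f3a from -0.42 to -0.37.

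**Figure D3:**
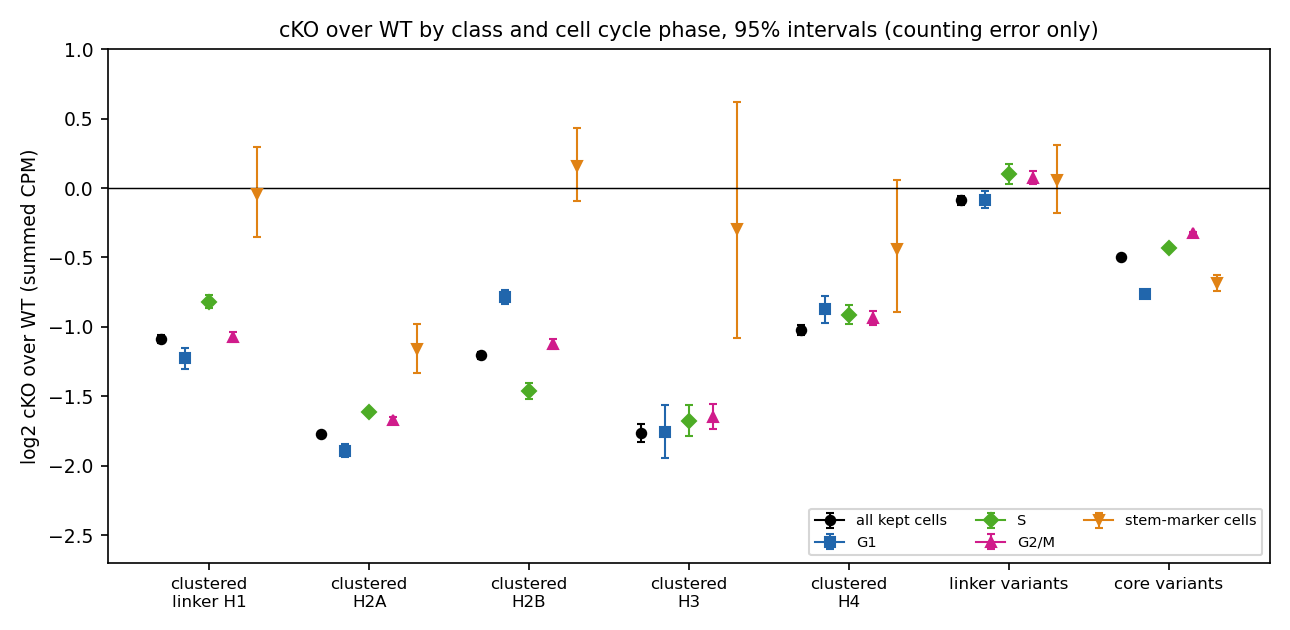
log2 ratio of cKO over WT of the summed CPM for 7 classes (x) in all kept cells, in cells called G1, S and G2/M, and in stem-marker cells, with 95% intervals of counting error. Every clustered class lies below 0 in all 3 phases, from -1.89 for H2A in G1 to -0.79 for H2B in G1, and the intervals of the stem-marker cells are wide.

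Within a library, S was set against G1 to see which members follow replication. The clustered linker genes were higher in S by a log2 ratio of 1.02 (0.96 to 1.09) in WT and 1.43 (1.37 to 1.50) in cKO. H2A was higher by 1.37 and 1.65, H3 by 1.11 and 1.19 and H4 by 0.70 and 0.66. H2B as a sum went the other way, at -0.45 and -1.12, and the variants stood at 0.01 and 0.32. A ratio of 1 or more was reached by 31 of the 55 clustered members in WT, beside 4.02% of 10319 genes outside the phase lists, and by 30 in cKO, beside 2.36%. A ratio of -1 or less was found for 3 members in WT and 4 in cKO, beside 5.4% and 1.11% of those genes. Most clustered genes were thus higher in S than in G1 in both libraries.

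Among members at the minimum level, those with the strongest S over G1 ratio were 3 H3 genes, an H2A gene, an H2B gene and a linker gene. In WT they were Hist1h3g at 3.92, Hist1h3b at 3.88 and Hist1h2ab at 3.65. In cKO they were Hist1h3c at 3.12, Hist1h1b at 2.86 and Hist1h2bm at 2.78. Apart from Hist1h1b, these genes had few UMIs in G1, so their exact ratios and their order are uncertain. Hist1h1b was nearly as high in WT, at 2.91, and stood at 35.7 CPM in G1, 269 in S and 466 in G2/M there, and at 20.5, 149 and 199 CPM in cKO. It carried most of the linker difference between S and G1: without it the linker genes stood at 0.09 in WT and 0.64 in cKO. Without Hist1h2ap the core genes stood at 0.51 and 0.32, against 0.91 and 0.71 with it, and without H3f3b the variants at 0.47 and 0.45.

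A few clustered genes were lower in S than in G1 and G2/M in both libraries. Hist1h2bc stood at 413 CPM in G1 and 116 CPM in S in WT (-1.83), and at 266 and 65.9 CPM in cKO (-2.01). Hist1h1c was at -1.06 and -1.09, Hist3h2ba at -0.61 and -1.60 and Hist3h2a at -1.24 and -1.04. Among the variants H1f0 had the same pattern, at -1.47 and -0.94. The H2B sum turns on Hist1h2bc, since the median H2B gene was at 1.03 in WT and 1.15 in cKO.

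Among the variants, H2afx and H2afz were the ones higher in S by a ratio of 1 or more in WT, and neither was in cKO. H2afx stood at 1.48 (1.38 to 1.59) in WT and 0.95 (0.88 to 1.01) in cKO, and at 2.94 and 2.55 in G2/M over G1. H2afz stood at 1.18 (1.15 to 1.21) and 0.72 (0.70 to 0.73) in S over G1. H3f3b was lower in S in WT, at -0.59, and level in cKO, at 0.01. H2afv was at 0.54 and 0.31, H2afy at 0.16 and 0.37, H3f3a at 0.08 and 0.12, and H1fx at 0.08 and -0.28.

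**Figure D4:**
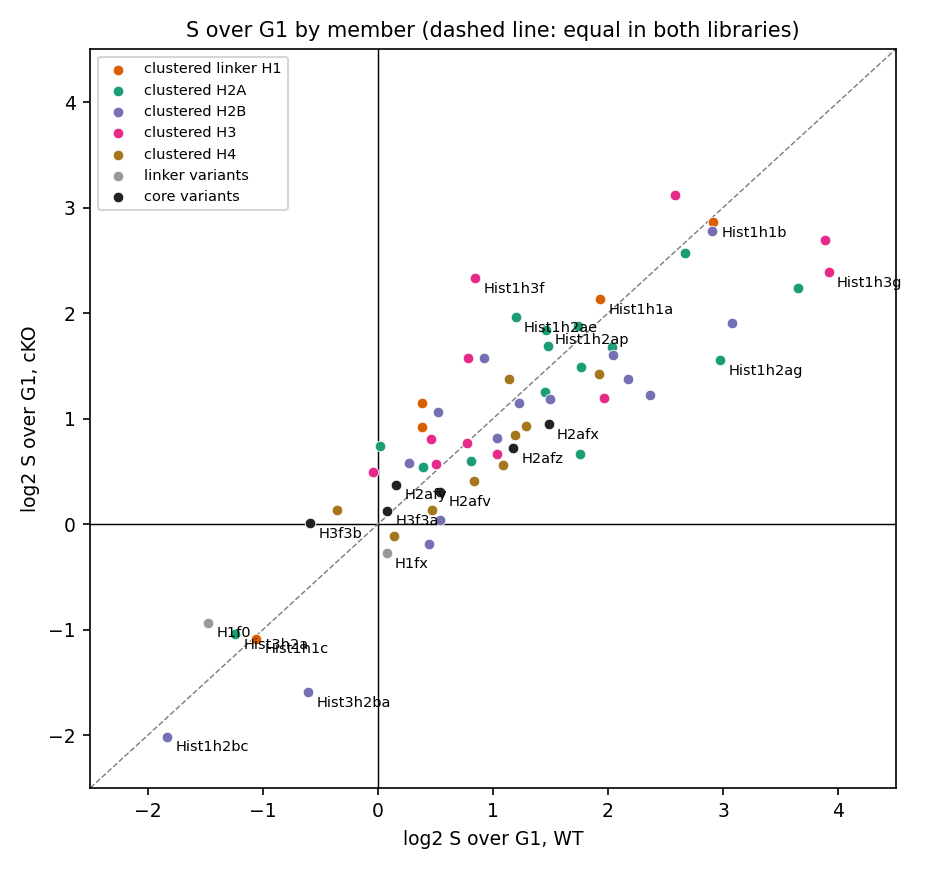
log2 ratio of S over G1 in WT (x) and in cKO (y) for the 63 members with a mean of at least 2 CPM, coloured by class, with the dashed line at equal ratios. Most clustered members lie in the upper right, while Hist1h2bc (-1.83 and -2.01), Hist1h1c and Hist3h2a lie in the lower left with H1f0.

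G2/M cells held more clustered transcript than S cells, with core genes at 1.75 in WT and 1.58 in cKO over G1. A G2/M over G1 ratio of 1 or more was reached by 46 of the 55 members in WT and 42 in cKO, beside 4.05% and 2.73% of all genes outside the phase lists, and none stood at -1 or less, beside 8.71% and 1.85%. The cells were therefore split further by both scores, from G1 through cells with only a positive S score, cells with both positive (S or G2/M higher) to cells with only a positive G2/M score. In WT the clustered genes summed to 1860.1, 2068, 6604, 7660.4 and 5607 CPM in that order. In cKO they summed to 744, 924, 2683, 2647 and 2199 CPM. The step thus came between cells with only the S score and cells with both, in both libraries. Of the 55 members, 40 in WT and 26 in cKO were highest in the state with both scores and G2/M higher, 11 and 18 in the state with S higher, and 3 and 11 in the G2/M state. Over all 10319 genes at the minimum level and outside the phase lists, the shares highest in these 3 states were 11.6%, 16.8% and 13.2% in WT and 14.6%, 20.3% and 15.4% in cKO. Hist1h2bc in WT was the one member highest in G1, where 45.7% of all genes were highest in WT and 34.8% in cKO. No clustered member was highest in cells with the S score alone, beside 12.8% and 15% of all genes.

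**Figure D5:**
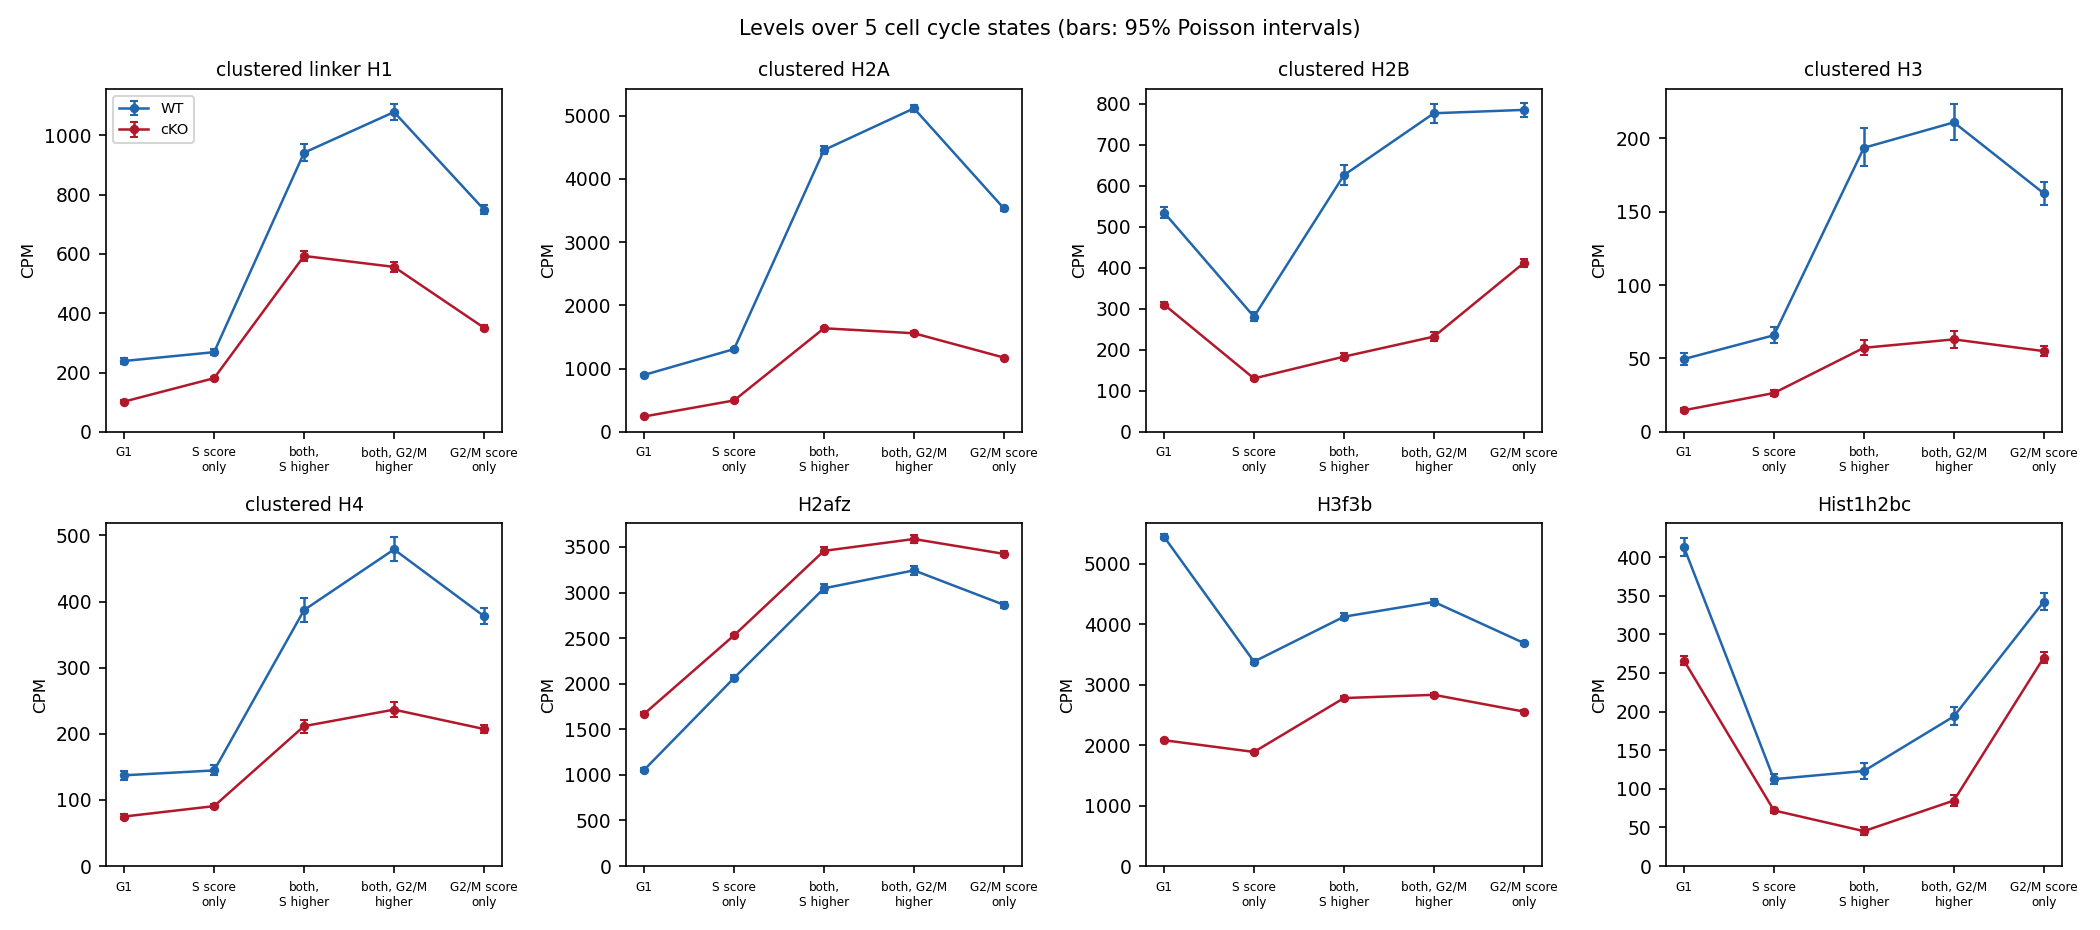
CPM of summed UMIs (y) over 5 cell cycle states (x) in WT and cKO for 5 clustered classes and for H2afz, H3f3b and Hist1h2bc, with 95% Poisson intervals. Clustered H1, H2A, H3 and H4 climb where both scores are positive, and cKO lies below WT in every panel but that of H2afz, where G1 cells hold 1054 (WT) and 1669 CPM (cKO).

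Stem-marker cells, those with at least 3 of Procr, Pdzk1ip1, Mllt3, Mecom, Hlf, Fgd5 and Hoxb5 among 2000 UMIs, numbered 110 in WT and 188 in cKO. In WT the clustered genes were counted at 2125 CPM in them and 4175 CPM in the other cells. In cKO they stood at 1459 and 1452 CPM. Stem-marker cells were thus lower than the others in WT, by a log2 ratio of -0.97 (-1.08 to -0.87), and, as a sum, level with them in cKO, at 0.01 (-0.06 to 0.07). The level sum in cKO held opposite differences, with H2A at -0.51 (-0.62 to -0.40) and H2B at 0.95 (0.83 to 1.06). In WT both were lower in stem-marker cells, at -1.13 and -0.44. Linker variants were higher in stem-marker cells of both, by 0.93 in WT and 1.08 in cKO. The S and G2/M lists summed to 2019 and 4740 CPM in WT stem-marker cells, beside 3297 and 7599 CPM in all WT cells. In cKO they summed to 2270 and 4385 CPM, beside 3389.9 and 5646 CPM. Stem-marker cells were not split by phase, so the part of the cell cycle in these values was not tested.

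Between the libraries, the clustered genes differed less in stem-marker cells than in all cells, beyond counting error. Their cKO over WT ratio was -0.54 (-0.67 to -0.42), with H2A at -1.16 (-1.33 to -0.98), while the intervals of the linker genes (-0.04, interval -0.36 to 0.29), H2B (0.16, interval -0.10 to 0.43), H3 (-0.29, interval -1.08 to 0.62) and H4 (-0.44, interval -0.90 to 0.06) held 0. At 17 WT and 52 cKO UMIs a difference in H3 was not detectable at this depth. The core variants were at -0.68 (-0.74 to -0.63). The stem-marker cells had median depths of 2927.5 (WT) and 6600.0 UMIs (cKO). Neutrophil markers summed to 338 and 4.68 CPM in them, granulocyte-monocyte progenitor markers to 1252 and 596 CPM, and their part in these values was not tested.

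The ratios also differed with the annotated 3-prime end. The 16 clustered members at the minimum level that end within 100 bases of the stem-loop had a median cKO over WT ratio of -1.86, and all 18 members of this kind summed to 2087 CPM in WT and 505 CPM in cKO. The 19 that run further had a median of -1.31, with 1186 and 556 CPM over all 20 of this kind, and the 18 at the minimum level with no stem-loop in the transcript a median of -1.77. Their median S over G1 ratios were 1.62, 0.47 and 1.75 in WT, and 1.47, 0.57 and 1.45 in cKO. Members that run past the stem-loop were thus nearer to 0 in both comparisons. The 3-prime end goes together with shared sequence: the 14 members whose last 400 bases share no 50-base stretch with another gene had a median of -1.14, and the 31 that share over 50% of them -1.85. The part of either in the ratios was not tested. Summed over members with no shared stretch, the linker genes stood at -1.17.

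Genes that start back to back had near ratios in some of the 9 H2A and H2B pairs, with 176 to 302 bases between their starts, and unlike ratios in others. The closest pair was Hist1h2an at -2.36 and Hist1h2bp at -2.45. The widest apart with both genes at the minimum level was Hist1h2ac at -1.90 and Hist1h2bc at -0.68. Hist1h2ae was at -1.12 and Hist1h2bg, which reads the same octamer from the other side, at -1.91. The partner with the lower ratio was H2A in 3 pairs, in 1 of which the H2A gene Hist1h2ah was below the minimum level, and H2B in 6. Hist1h2ac and Hist1h2ah are named after their values were seen. H2A genes with the octamer had a median ratio of -1.01 (5 genes at the minimum level) and those without one of -1.96 (10 genes). For H2B the medians were -1.86 (6 genes) and -2.05 (7 genes). The ranges overlapped, at -1.90 to -0.36 and -2.86 to -1.11 in H2A and -2.32 to -0.94 and -2.59 to -0.85 in H2B. Shared 3-prime sequence differed too: with the octamer Hist1h2ac and Hist3h2a share 0%, Hist2h2ac 33.9%, Hist1h2ae 44.2% and Hist1h2ab 70.1%. Of the 10 H2A genes without it, Hist2h2ab shares 23.6% and the others 52.3% (Hist1h2ak) to 100% (Hist1h2ap). The part of the octamer or of shared sequence in these ratios was not tested.

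Most genes that drive histone transcription, process histone mRNA and place histones stayed within 0.5 between the libraries. Of 5 histone transcription genes at the minimum level, 1 was higher and none lower past 0.5, with a median of 0.22: Npat, the coactivator of clustered genes, was at 10.1 CPM in WT against 10.1 in cKO (0.00), Ccne1 (cyclin E1), the highest, at 8.51 CPM in WT against 14.7 in cKO (0.78), and Casp8ap2 (FLASH), the lowest, at -0.05. None of 9 genes of histone mRNA processing and decay passed 0.5 either way, with a median of 0.07. Slbp, the stem-loop binding protein, was at 166 CPM in WT against 175 in cKO (0.07), and the list ran from Cpsf2 at -0.07 to Lsm11 at 0.33. Slbp, Casp8ap2 and Ccne2 are also in the S list. The 14 genes of both lists at the minimum level lay between -0.07 and 0.78, beside a median of -0.08 over all genes. Their part in the histone values was not tested.

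Of 9 replication-coupled chaperone genes, Nasp, an H3-H4 chaperone, was higher at 75.6 CPM in WT against 119 in cKO (0.65) and Asf1b lower at 64.9 CPM in WT against 45.3 in cKO (-0.52), with a median of 0.02. The 12 genes of variant deposition and removal had a median of -0.21, beside -0.08 over all genes, and 1, Srcap, which loads H2A.Z, was lower past 0.5 at 5.68 CPM in WT against 3.67 in cKO (-0.63). Hira, which places H3.3, was the highest of them at -0.05, a value that turns above 0 with the other scalings. Of 5 nucleosome turnover genes, Spty2d1 was the lowest at 23.4 CPM in WT against 16.1 in cKO (-0.54) and Nap1l1, an H2A-H2B chaperone, the highest at 0.32. The other scalings raise each ratio by 0.096 to 0.105, and under them Asf1b and Spty2d1 no longer pass 0.5. These lists stand beside the same 18.7% lower and 9.43% higher over all genes.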

How the data were processed

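The authors deposited filtered UMI counts per gene and barcode for 2 10x Genomics 3-prime libraries, made per the labels with Cell Ranger 6.0.0 on mm10 (the kit is v2 in the labels and v3 in the methods). Cells were kept by the study's limits (over 200 and under 4000 genes in WT or 4500 in cKO, under 10% or 5% mitochondrial and under 5% haemoglobin UMIs). Doublets were removed by a score against simulated doublets (50 neighbours, 20 components, 1500 genes, 0.8% per 1000 barcodes), which took 616 WT and 675 cKO cells. UMIs were summed over cells and given as CPM, and log2 ratios used 0.5 added counts. Intervals are exact Poisson or conditional binomial at 95%. A call is a log2 ratio of 0.5 at a mean of 2 CPM, or of 1 between phases. Phases followed Seurat's scoring rule (24 bins, 100 control genes), on both libraries together. With 1 library a group, no p-value was computed. Members and lists were chosen with earlier results of these data known. The text names all variants and linker genes, the 12 core genes with most UMIs, the 5 highest and 5 lowest ratios, the 3 highest S over G1 ratios in each library, Trmt6, and of each pathway list the highest and lowest gene with Slbp and Npat. Other members are named for their sequence, or as stated. The stem-loop was searched within transcripts, since bases beyond their ends were not used here. Scripts (Python 3.11, numpy 2.4.6, scipy 1.17.1, scikit-learn 1.9.0; edgeR 4.0.16 for TMM factors) were tested on simulated data. Alternatives covered scaling, doublets, cell limits, averaging, thinning, level and fold limits, phases and the most counted member.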

Additional observations from a re-analysis of the deposited data

Results flagged for a closer look

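In 4 members the cKO over WT ratio had opposite signs in different cell cycle phases with counting intervals that left out 0, and in each case the difference between phases was not tested. Hist3h2a stood at 0.13 in G2/M, at -0.64 in G1 and at -0.44 in S, and it was the one clustered member at the minimum level above 0 in G2/M. H2afx, the variant with a stem-loop, stood at 0.26 in G1, -0.28 in S and -0.13 in G2/M. The linker variant H1f0 stood at 0.35 in S, 0.21 in G2/M and -0.19 in G1, and H1fx at 0.17 in G1, -0.19 in S and -0.10 in G2/M. With median-of-ratios scaling the last value became 0.002, so the signs of H1fx in G1 and G2/M were then the same. With 1 library a genotype, no sample could stand apart within a group.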

How the results depend on the processing

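No paired analysis was possible because each genotype has 1 library, and for the same reason no library could be left out. The count of members lower in cKO past 0.5, 57, was 56 to 57 under every other scaling, doublet, cell-limit and averaging choice and in cells with few myeloid marker UMIs, and it was 62 at a mean of at least 1 CPM, 46 at 5 CPM and 43 at a log2 ratio of 1, with none higher under any of them. The direction of the linker, core and variant sums between the libraries held under all alternatives run, with the following log2 ratios of cKO over WT for clustered linker genes, clustered core genes and variants in that order. They were -0.99, -1.50 and -0.39 with TMM factors, -0.98, -1.49 and -0.38 with median-of-ratios factors, -0.99, -1.50 and -0.39 without mitochondrial and ribosomal protein genes in the total, -0.998, -1.47 and -0.55 with each cell scaled first, -1.01, -1.48 and -0.50 at the same phase mix, -1.23, -1.34 and -0.74 in G1 and -0.82, -1.53 and -0.42 in S. In G2/M the core genes stood at -1.51 and the variants at -0.31, and with the same cell limits in both libraries the variants at -0.48. Without the most counted member the values were -1.03, -1.23 and -0.26. Of the alternatives chosen after seeing the data, cells with few myeloid marker UMIs gave -1.19, -1.72 and -0.54, and members without shared 50-base stretches -1.17 for linker and -0.89 for core genes.

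For S over G1, WT cells thinned to 1000 UMIs gave 0.84, 0.82 and 0.027, each cell scaled first 0.83, 0.73 and -0.021, and the sums without the most counted member 0.095, 0.51 and 0.47. The WT variants, at 0.01, stood at -0.010 with phases from all UMIs. In cKO the values were 1.11, 0.56 and 0.25 at 1000 UMIs, 1.68, 0.82 and 0.38 from all UMIs, 1.34, 0.67 and 0.30 with doublets kept, 1.25, 0.53 and 0.30 with each cell scaled first and 0.64, 0.32 and 0.45 without the most counted member, and the core genes stood at 0.74 with phases scored in each library. The causes were not tested. Of the values of single members under the alternatives, 828 stayed within their counting interval and 180 moved, and H1f0 alone of the members at the minimum level changed sign between the libraries under another scaling, doublet, cell-limit or averaging choice, from -0.17 to 0.084. In cells with few myeloid marker UMIs, limits chosen after seeing the data, H1f0 was lower still, down to -0.59 in cells with none, and H2afz turned to -0.093 there. The other scalings moved the median of all genes by 0.096 to 0.105, so all ratios above are relative to UMI totals, and they took the share of calls over all genes that were higher in cKO from 33.5% to between 47.6% and 48.8%. Members with few UMIs, such as Hist1h1t, could not be compared at this depth.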
